A study of Mus musculus with 49 samples.

Results

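The cytosolic nucleic acid sensing genes described here are 10 genes listed by name: the DNA sensor Cgas and its adaptor Sting1, the RNA sensor Ifih1 and its adaptor Mavs, the Z-nucleic acid sensor Zbp1, the kinases Tbk1 and Ikbke, the transcription factor Irf3, and the enzymes Trex1 and Samhd1. They were measured among the 45252 genes of bulk neocortex RNA-seq from 49 mice at 28.5 weeks of age, 3 weeks after transgene induction. The 32 rNLS8 mice were bigenic: an NEFH-tTA allele, which drives a transactivator from a neurofilament promoter active in neurons, switched on tetO-hTDP-43ΔNLS, a human TDP-43 lacking its nuclear localization signal, once doxycycline was withdrawn at 25.5 weeks. Of these, 10 received PBS (TDP-PBS), 10 were immunized with peptides from the low-complexity domain (TDP-10+12) and 12 with a phosphorylated C-terminal peptide (TDP-15), while 17 monogenic controls received PBS (ctrl-PBS). Which of the 2 alleles each control carried is not given in the sources used here. All mice had the same mixed C57BL/6J and C3H/HeJ background and had been raised on doxycycline. Immunization started at 8 weeks and used 40 µg of ovalbumin-conjugated peptide with CpG oligonucleotide and alum. The PBS groups had PBS in place of the conjugate, and whether theirs held the adjuvants is not given in the sources used here.

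In this pathway, cGAS binds double-stranded DNA in the cytosol and makes the second messenger cGAMP, which activates STING on the endoplasmic reticulum, whereas MDA5, the product of Ifih1, binds long double-stranded RNA and signals through MAVS on mitochondria. Both branches converge on the kinases TBK1 and IKKε (Ikbke), which phosphorylate IRF3 so that it enters the nucleus and induces type I interferon. ZBP1 senses Z-form nucleic acid and couples it to RIPK3 and cell death, while TREX1 degrades cytosolic DNA and SAMHD1 hydrolyses deoxynucleotides, and both restrain the pathway. Several of the sensors are themselves interferon-inducible, TBK1 loss-of-function mutations cause ALS and FTD, and mutations in IFIH1, TREX1 or SAMHD1 are among those that can cause the inherited interferonopathy Aicardi-Goutières syndrome.

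The libraries held 17775738 to 21033608 counts each (median 19955601), and 18220 genes passed the filter on low counts. The counts under the mouse gene Tardbp had a median of 146.8 CPM (counts per 1000000 counts of the library, after scaling between libraries) in ctrl-PBS and of 119.1 to 121.6 CPM in the rNLS8 groups. Whether they hold reads of the human transgene is not given in the sources used here. The summed level of 12 neuron markers had a median of 7206 CPM in ctrl-PBS and of 5506 to 5734 CPM in the rNLS8 groups, with no overlap between ctrl-PBS and any of them. The summed level of 10 microglia markers had a median of 284.8 CPM in ctrl-PBS (257.9 to 331.8) and of 337.4 to 356.3 CPM in the rNLS8 groups (271.6 to 460.7), and of the 10 markers 5 rose and 0 fell in TDP-PBS, 5 rose and 1 fell in TDP-10+12, and 6 rose and 1 fell in TDP-15. The one that fell was P2ry12, a receptor of resting microglia, with log2 fold changes of -0.18 (adjusted p = 0.0135, edgeR) and -0.15 (adjusted p = 0.0260). The T cell markers Cd3e, Cd3d, Cd3g, Cd8a and Cd8b1 reached at most 8 counts in any mouse. Cd4 was well detected and fell in each rNLS8 group, from a median of 20.05 CPM in ctrl-PBS (1.79 to 35.3) to 8.37, 6.87 and 6.39 CPM in TDP-PBS, TDP-10+12 and TDP-15 (highest adjusted p = 0.000257, edgeR). Plac8, a marker of monocytes, rose in each group, from a mean of 0.147 CPM in ctrl-PBS to 0.671, 0.485 and 0.760 CPM (highest adjusted p = 0.000485, edgeR). It was the only 1 of the 5 tested monocyte and B cell markers that rose, and 2 of them fell in TDP-15. The summed level of all 11 such markers had a median of 12.4 CPM in ctrl-PBS and of 13.4, 10.8 and 12.3 CPM in the rNLS8 groups. These marker shifts accompany the results below, and their part in them was not tested. In bulk tissue, fewer cells of a type and less RNA per cell cannot be told apart.

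Of the 10 genes, 9 passed the filter. Trex1 was the exception, with 0 counts in all 49 mice. In RefSeq its position, chr9:109057932-109059723, overlaps the readthrough gene Atrip-trex1 (chr9:109057933-109074097), which had 1 to 12 counts per mouse, and the neighbouring gene Atrip had a single count in 1 mouse. How reads from this shared sequence were assigned is not given in the sources used here, so the zeros of Trex1 were not read as a level. A count of 0 allows up to 3 counts, which is 0.143 to 0.169 CPM at these depths and covers counting error only.

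In TDP-PBS against ctrl-PBS, 5 of the 9 tested genes rose (Cgas, Sting1, Ifih1, Zbp1 and Samhd1) and 1 fell (Tbk1) at an adjusted p under 0.05 (edgeR quasi-likelihood test, Benjamini-Hochberg adjustment over 18220 genes). Over all genes tested, 21.9% rose and 21.6% fell in this comparison. In TDP-10+12 against ctrl-PBS, 3 rose (Ifih1, Zbp1 and Samhd1) and 2 fell (Tbk1 and Irf3), against 20.8% and 20.0% of all genes. In TDP-15 against ctrl-PBS, 4 rose (Sting1, Ifih1, Zbp1 and Samhd1) and 1 fell (Irf3), against 23.6% and 23.2% of all genes. The median log2 fold change of the 9 genes was 0.27, 0.21 and 0.27 in the 3 comparisons, beside medians of all genes within 0.01 of 0. These 3 comparisons share the same 17 control mice, so their values are given side by side and not as separate evidence.

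**Figure D1:**
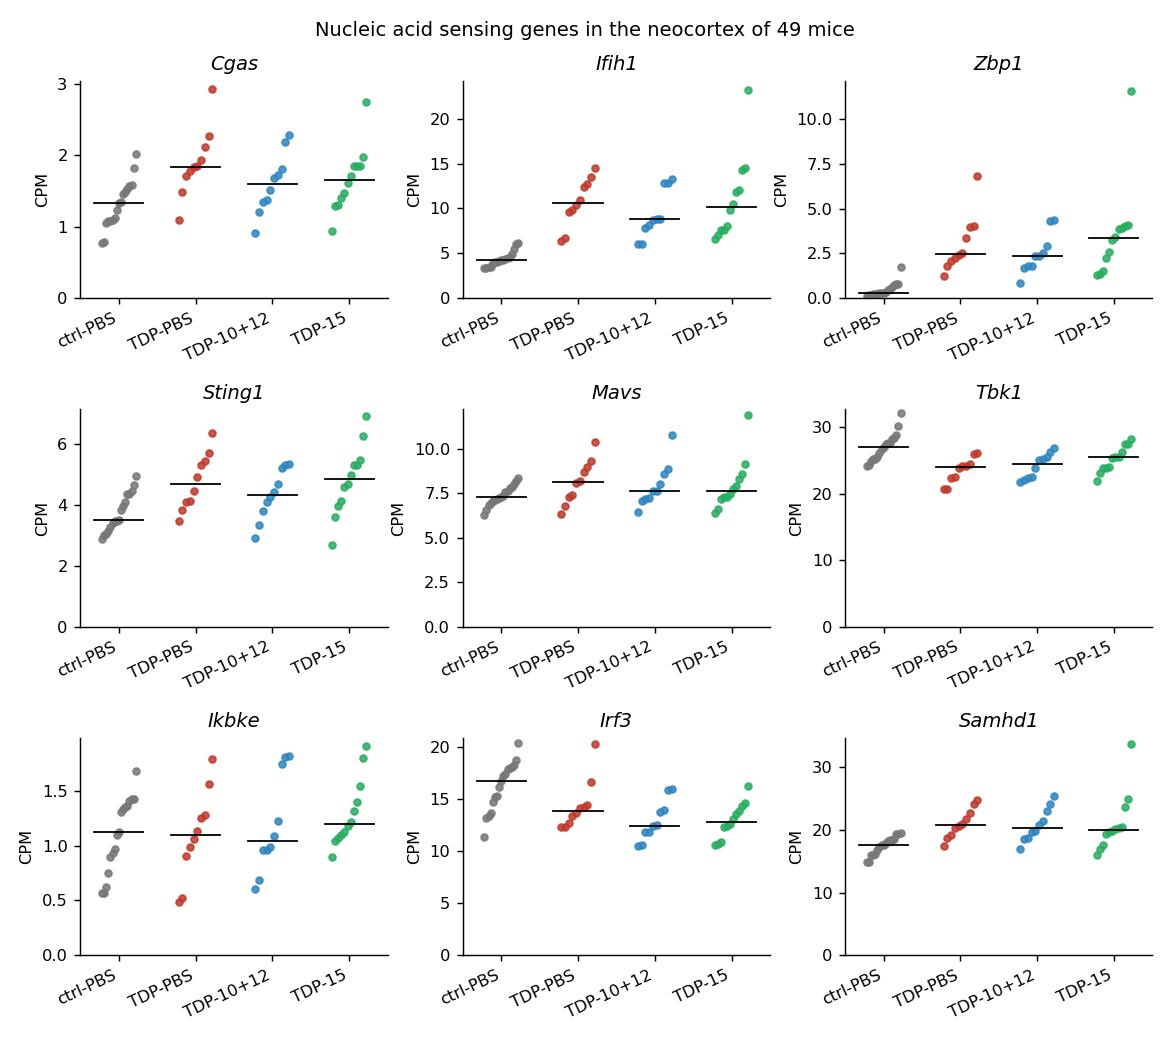
Level of each of the 9 detected genes in CPM in every mouse (points), by group (17 ctrl-PBS, 10 TDP-PBS, 10 TDP-10+12 and 12 TDP-15 mice), with black lines at the group medians. Ifih1 and Zbp1 are the genes whose rNLS8 mice stand farthest above the controls, and TDP-15 mouse 126 is the highest point of its group for Ifih1 (23.2 CPM) and Zbp1 (11.6 CPM).

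The RNA sensor Ifih1 (chr2:62595618-62646255, GRCm38.p6) was higher in nearly every rNLS8 mouse. Its level ran from 3.36 to 6.13 CPM in ctrl-PBS (median 4.21), from 6.37 to 14.6 CPM in TDP-PBS (median 10.6), from 6.04 to 13.3 CPM in TDP-10+12 (median 8.79) and from 6.59 to 23.2 CPM in TDP-15 (median 10.2). The ranges of TDP-PBS and TDP-15 did not overlap that of ctrl-PBS, which held in the upward direction for 2.31% and 2.45% of all genes. Of the 32 rNLS8 mice, 30 were above every control mouse, and the remaining 2 were TDP-10+12 mice 51 and 242. The log2 fold change was 1.29 ± 0.16 (SE) in TDP-PBS (adjusted p = 1.35e-09), 1.10 ± 0.16 in TDP-10+12 (adjusted p = 9.99e-08) and 1.34 ± 0.15 in TDP-15 (adjusted p = 1.14e-10).

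Zbp1 (chr2:173206612-173218959), the Z-nucleic acid sensor, was scarce in control cortex and showed the largest fold change of the 9 genes in each of the 3 comparisons. In ctrl-PBS it ran from 0.107 to 1.72 CPM (median 0.308), which was 2 to 34 counts with a median of 6. Zbp1 thus passed the filter on low counts (minimum count 10) only through the rNLS8 mice, in which it was higher. It ran from 1.23 to 6.82 CPM in TDP-PBS (median 2.49), from 0.854 to 4.36 CPM in TDP-10+12 (median 2.36) and from 1.32 to 11.6 CPM in TDP-15 (median 3.34). The log2 fold change was 2.66 ± 0.33 (SE) in TDP-PBS (adjusted p = 1.74e-09), 2.37 ± 0.33 in TDP-10+12 (adjusted p = 4.71e-08) and 2.90 ± 0.31 in TDP-15 (adjusted p = 4.32e-11). Of the 32 rNLS8 mice, 26 were above every control, and the overlap came from a single control, mouse 131, which was also the highest control for Ifih1 (6.13 CPM) and Samhd1 (19.4 CPM). Without mouse 131 all 32 rNLS8 mice were above the other 16 controls, whose highest value was 0.805 CPM, a description chosen after the values were seen, and the log2 fold changes were 2.92 in TDP-PBS, 2.63 in TDP-10+12 and 3.16 in TDP-15.

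The DNA sensor Cgas (chr9:78430518-78443237) was a low-abundance transcript with broad overlap between groups. It ran from 0.773 to 2.01 CPM in ctrl-PBS (median 1.33), from 1.09 to 2.93 CPM in TDP-PBS (median 1.84), from 0.914 to 2.28 CPM in TDP-10+12 (median 1.59) and from 0.933 to 2.74 CPM in TDP-15 (median 1.66), and 6 of the 32 rNLS8 mice were above every control. The rise in TDP-PBS was 0.53 ± 0.15 on the log2 scale (SE, adjusted p = 0.00347). In TDP-10+12 the log2 fold change was 0.28 ± 0.15 (adjusted p = 0.134). In TDP-15 it was 0.34 ± 0.14 with an adjusted p of 0.050003 that lay just above the threshold, and 30 of the 49 fits that left out a single mouse brought it below. Many of these fits left out a TDP-PBS or TDP-10+12 mouse, which is outside this comparison. Such a mouse enters only through the filter, the scaling between libraries and the shared fit, all of which were redone without it. The log2 fold change was 0.35 without TDP-PBS mouse 26, for example. Without TDP-15 mouse 126 the value was 0.25 (adjusted p = 0.151).

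Sting1, the adaptor that cGAMP activates, is encoded on chromosome 18 and overlapped between groups as well. Its level ran from 2.89 to 4.94 CPM in ctrl-PBS (median 3.49), from 3.46 to 6.33 CPM in TDP-PBS (median 4.68), from 2.91 to 5.34 CPM in TDP-10+12 (median 4.32) and from 2.67 to 6.90 CPM in TDP-15 (median 4.83). Of the 32 rNLS8 mice, 13 were above every control and 1 was below every control. The log2 fold change was 0.34 ± 0.11 (SE) in TDP-PBS (adjusted p = 0.0117), 0.21 ± 0.11 in TDP-10+12 (adjusted p = 0.148) and 0.36 ± 0.11 in TDP-15 (adjusted p = 0.0046).

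Mavs (chr2:131234063-131248025), the adaptor on the RNA side, did not pass the test in any of the 3 comparisons. It ran from 6.30 to 8.37 CPM in ctrl-PBS (median 7.32), from 6.32 to 10.4 CPM in TDP-PBS (median 8.11), from 6.44 to 10.8 CPM in TDP-10+12 (median 7.62) and from 6.38 to 11.9 CPM in TDP-15 (median 7.61). The 95% interval of its log2 fold change was -0.02 to 0.30 in TDP-PBS, -0.05 to 0.26 in TDP-10+12 and -0.03 to 0.26 in TDP-15. The rNLS8 mice were more spread than the controls in this gene, with SDs of 1.24, 1.22 and 1.47 CPM against 0.554 CPM, and 10 of the 32 were above every control.

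**Figure D2:**
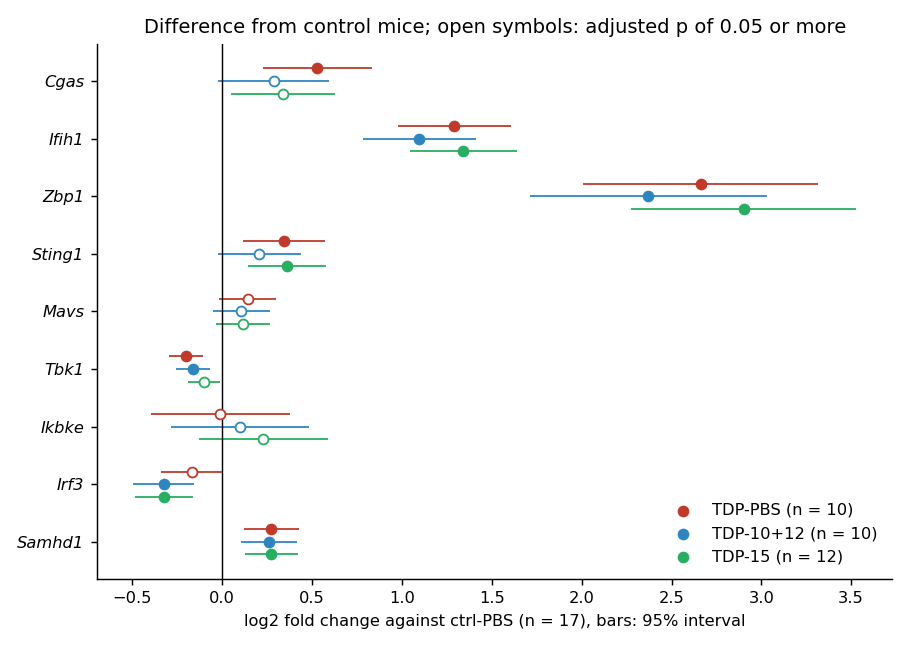
Log2 fold change of the 9 genes against ctrl-PBS (x axis) in TDP-PBS (10 mice), TDP-10+12 (10 mice) and TDP-15 (12 mice), each against the same 17 controls, with bars for the 95% interval and open symbols for adjusted p of 0.05 or more. Zbp1 (2.37 to 2.90) and Ifih1 (1.10 to 1.34) lie far from 0, while Tbk1 and Irf3 lie below 0 in each comparison.

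Of the kinases, Tbk1 (chr10:121546455-121586794) was lower in rNLS8 mice by a small amount. It ran from 24.1 to 32.1 CPM in ctrl-PBS (median 27.1), from 20.7 to 26.1 CPM in TDP-PBS (median 23.96), from 21.7 to 26.8 CPM in TDP-10+12 (median 24.4) and from 21.8 to 28.2 CPM in TDP-15 (median 25.4). No rNLS8 mouse was above every control, and 16 of the 32 were below every control. Tbk1 fell by 0.20 ± 0.05 on the log2 scale in TDP-PBS (SE, adjusted p = 0.000401) and by 0.16 ± 0.05 in TDP-10+12 (adjusted p = 0.00385). In TDP-15 the log2 fold change was -0.10 ± 0.04 (adjusted p = 0.0567), and leaving out any of the ctrl-PBS mice 38, 131 or 137 or the TDP-15 mice 54, 254 or 261 brought the adjusted p below 0.05, to 0.0300 at the lowest. The neuron marker sum given above, which was lower in the rNLS8 groups, moved in the same direction as Tbk1, and its part was not tested.

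Ikbke (chr1:131254600-131279601), the other kinase, was near the limit of what these libraries could measure, with 9 to 39 counts per mouse. It ran from 0.567 to 1.68 CPM in ctrl-PBS (median 1.12), from 0.482 to 1.79 CPM in TDP-PBS (median 1.10), from 0.603 to 1.83 CPM in TDP-10+12 (median 1.04) and from 0.895 to 1.92 CPM in TDP-15 (median 1.20). The 95% interval of its log2 fold change was -0.40 to 0.38 in TDP-PBS, -0.28 to 0.48 in TDP-10+12 and -0.13 to 0.59 in TDP-15, and no comparison passed the test. The lncRNA gene Gm28913, with a median of 30 counts, overlaps Ikbke (chr1:131245090-131267237), and whether counting used strand is not given in the sources used here. The log2 ratio of Ikbke to Tbk1 CPM had a median of -4.34 in ctrl-PBS, -4.32 in TDP-PBS, -4.35 in TDP-10+12 and -4.31 in TDP-15, with SDs of 0.33 to 0.56, so the counts of Tbk1 exceeded those of Ikbke many-fold in every group.

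Irf3 (chr7:44997648-45002848), the factor that both kinases phosphorylate, ran from 11.4 to 20.4 CPM in ctrl-PBS (median 16.7), from 12.3 to 20.3 CPM in TDP-PBS (median 13.9), from 10.5 to 15.9 CPM in TDP-10+12 (median 12.4) and from 10.6 to 16.2 CPM in TDP-15 (median 12.8). It fell by 0.33 ± 0.08 on the log2 scale in TDP-10+12 (SE, adjusted p = 0.00137) and by 0.32 ± 0.08 in TDP-15 (adjusted p = 0.000623), and 5 of the 32 rNLS8 mice were below every control. For TDP-PBS the log2 fold change was -0.17 ± 0.08 (adjusted p = 0.0954). Without TDP-PBS mouse 91, the highest of its group at 20.3 CPM, that value was -0.22 (adjusted p = 0.0216), and without ctrl-PBS mouse 193 it was -0.20 (adjusted p = 0.0436). The immunized groups were not shown to differ from TDP-PBS in Irf3, as the direct comparisons gave -0.16 ± 0.09 for TDP-10+12 (adjusted p = 0.954) and -0.15 ± 0.09 for TDP-15 (adjusted p = 0.9996).

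Samhd1 (chr2:157097534-157135096), the deoxynucleotide hydrolase, rose by nearly the same amount in each rNLS8 group. It ran from 14.8 to 19.4 CPM in ctrl-PBS (median 17.7), from 17.5 to 24.8 CPM in TDP-PBS (median 20.8), from 16.9 to 25.5 CPM in TDP-10+12 (median 20.4) and from 15.97 to 33.8 CPM in TDP-15 (median 20.0). The log2 fold change was 0.27 ± 0.08 (SE) in TDP-PBS (adjusted p = 0.00311), 0.26 ± 0.08 in TDP-10+12 (adjusted p = 0.00533) and 0.27 ± 0.07 in TDP-15 (adjusted p = 0.00173). Of the 32 rNLS8 mice, 22 were above every control.

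RefSeq promoter windows of 300 bases (250 before and 50 from the transcription start, GRCm38.p6) were at hand for 8 of the 10 genes, with none for Zbp1 and Sting1. They were searched on both strands for GAAANNGAA, the core of sites bound by IRF factors, and for TTCNNNGAA, the palindromic core of gamma-activated sites. The first occurred in 8.56% of 32851 promoters and the second in 8.30%. Ifih1 held 2 matches to the first, Samhd1 held 1 match to the second, and the other 6 genes held neither. For each motif this is 1 of the 8 genes, near the share over all promoters, so the matches are not read as a result about these genes. The windows of Ifih1 and Samhd1 are shown because they hold the matches. The matches in Ifih1 lie at bases -112 to -104 (reverse strand) and 33 to 41 from the start, and that in Samhd1 at bases -235 to -227, all shown in capitals on the strand of the gene. A match in letters is a description and not a binding site, and its absence in a window draws nothing about the factor.
Ifih1, chr2:62646256-62646505, minus strand, 250 bases before the start: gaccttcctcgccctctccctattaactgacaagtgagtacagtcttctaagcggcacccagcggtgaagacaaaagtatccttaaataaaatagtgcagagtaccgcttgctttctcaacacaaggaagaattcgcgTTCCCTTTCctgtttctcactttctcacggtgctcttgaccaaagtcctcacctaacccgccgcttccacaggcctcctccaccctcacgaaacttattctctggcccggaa
Ifih1, chr2:62646206-62646235, minus strand, bases 21 to 50 from the start: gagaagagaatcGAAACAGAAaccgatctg
Samhd1, chr2:157135097-157135346, minus strand, 250 bases before the start: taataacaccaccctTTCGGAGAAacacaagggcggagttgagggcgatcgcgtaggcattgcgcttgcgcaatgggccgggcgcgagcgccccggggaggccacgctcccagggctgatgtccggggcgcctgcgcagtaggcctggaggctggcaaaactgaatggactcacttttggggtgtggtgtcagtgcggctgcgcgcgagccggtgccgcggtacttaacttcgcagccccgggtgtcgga

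TDP-15 mouse 126, a male, was the highest of its group for 7 of the 9 genes (Ifih1, Zbp1, Samhd1, Mavs, Sting1, Cgas and Irf3). Without this mouse the log2 fold changes in TDP-15 were 1.19 for Ifih1, 2.58 for Zbp1, 0.19 for Samhd1 (adjusted p = 0.0100) and 0.30 for Sting1 (adjusted p = 0.0171), and none of the 9 calls in TDP-15 changed.

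Compared per length, the most abundant of the 9 transcripts in ctrl-PBS was Tbk1, with a median of 6.92 CPM per kb of exon. It was followed by Irf3 at 4.85, Mavs at 2.19, Samhd1 at 1.93, Sting1 at 1.27, Ifih1 at 0.516, Cgas at 0.323, Ikbke at 0.124 and Zbp1 at 0.0873 CPM per kb. The ranges over the 17 controls overlapped between Mavs and Samhd1, between Samhd1 and Sting1, between Ifih1 and Cgas and between Ikbke and Zbp1, and did not overlap between the other neighbours. Within single control mice, Samhd1 was above Sting1 and Ifih1 above Cgas in 17 of 17, Mavs was above Samhd1 in 15 of 17, and Ikbke was above Zbp1 in 8 of 17. Tbk1 and Irf3 were more abundant per length than the sensors Ifih1, Cgas and Zbp1 in control cortex, with no overlap of the ranges. In TDP-PBS the order of the medians of the lower genes changed, with Zbp1 at 0.704 CPM per kb above Cgas at 0.446 and Ikbke at 0.122. The ranges of Zbp1 (0.349 to 1.93) and Cgas (0.263 to 0.710) overlapped in TDP-PBS. With the longest annotated transcript in place of all exons, Samhd1 (4.50 CPM per kb) came before Mavs (2.39), because its longest transcript is 3926 bases against 9150 bases of summed exon.

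**Figure D3:**
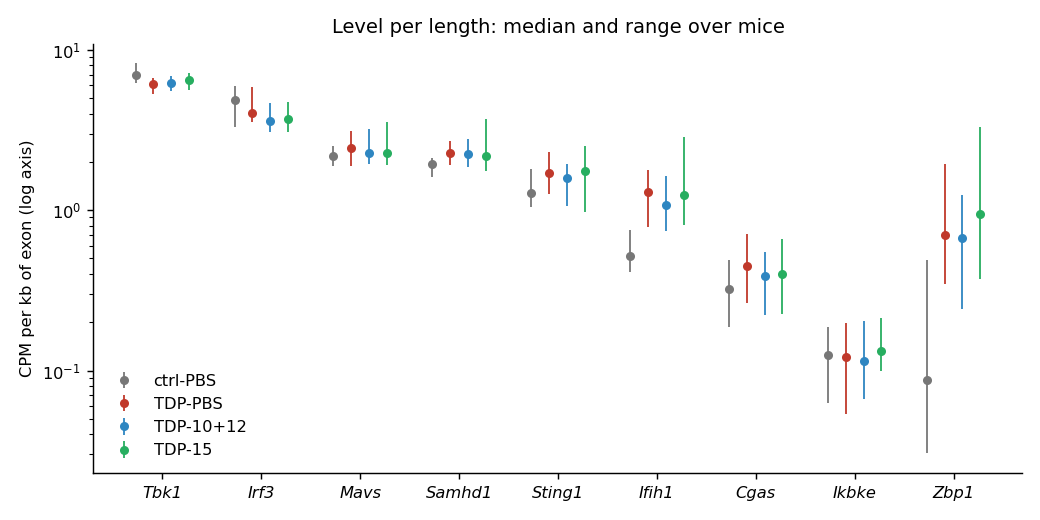
Level per length of the 9 detected genes (y axis, CPM per kb of exon, log axis) in the 4 groups, with points at the median and bars from the lowest to the highest mouse (17, 10, 10 and 12 mice). Tbk1 is highest at 6.92 CPM per kb in ctrl-PBS. Zbp1 goes from the lowest median in ctrl-PBS (0.0873) to a median above that of Cgas in TDP-PBS (0.704 against 0.446), where their ranges overlap.

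To ask whether immunization changed the sensing genes, the rNLS8 groups were compared with each other. None of the 9 genes was called in TDP-10+12 against TDP-PBS, TDP-15 against TDP-PBS or TDP-10+12 against TDP-15 by edgeR, and none had an unadjusted p under 0.05. The share of all genes called was 0% in each of these comparisons, and 5.23%, 3.03% and 6.83% of all genes had an unadjusted p under 0.05, while DESeq2 called 0, 0 and 2 genes and limma-voom called 2, 0 and 0, none of them among the 9. For Ifih1 the 95% interval of the log2 difference from TDP-PBS was -0.54 to 0.15 in TDP-10+12 and -0.28 to 0.38 in TDP-15. For Zbp1 it was -0.95 to 0.37 in TDP-10+12 and -0.38 to 0.86 in TDP-15. The smallest unadjusted p among the 9 genes belonged to Tbk1 in TDP-15 against TDP-PBS (0.10 ± 0.05, SE, adjusted p = 0.9996 by edgeR, interval -0.00 to 0.20). For Samhd1 the interval was -0.19 to 0.16 in TDP-10+12 and -0.17 to 0.17 in TDP-15, each bound being closer to 0 than the rise of 0.26 to 0.27 seen against the controls, whereas for Cgas it was -0.58 to 0.10 and -0.51 to 0.13.

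Between the sexes, the 4 female and 6 male TDP-PBS mice were set against the 10 female and 7 male controls. No gene was called in the genotype by sex interaction by edgeR (1196 of all genes tested had an unadjusted p under 0.05), and among the 9 genes 1 had an unadjusted p under 0.05. That gene was Ikbke, with a log2 fold change of 0.39 ± 0.26 (SE) in females and -0.37 ± 0.26 in males (adjusted p of the difference = 0.758). For Ifih1 the log2 fold change was 1.46 ± 0.23 in females and 1.13 ± 0.22 in males, and for Zbp1 it was 2.91 ± 0.47 and 2.29 ± 0.44.

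Among the 32 rNLS8 mice, with the group means removed, Zbp1 and Samhd1 varied together with Ifih1. This relation was examined after the values had been seen. Over 8 relations with Ifih1, Pearson's r was 0.835 for Zbp1 (Spearman's rho 0.762) and 0.761 for Samhd1 (rho 0.714), with adjusted p values of 4e-05 for both r and of 8e-05 and 0.00012 for rho (permutation test of 100000 resamples, two-sided, the smallest p it can give being 1e-05). Without the 2 mice farthest from the median of Ifih1, mice 126 and 251, r was 0.763 for Zbp1 and 0.649 for Samhd1. For Cgas r was 0.367 and for Sting1 0.384 (adjusted p = 0.0767 for both, permutation test), dropping to 0.228 and 0.250 without those mice. Mavs, Tbk1, Ikbke and Irf3 had r between -0.19 and 0.19 with adjusted p of 0.405 or more (permutation test). Without mice 126 and 251 their r was -0.18, -0.09, -0.17 and -0.32.

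**Figure D4:**
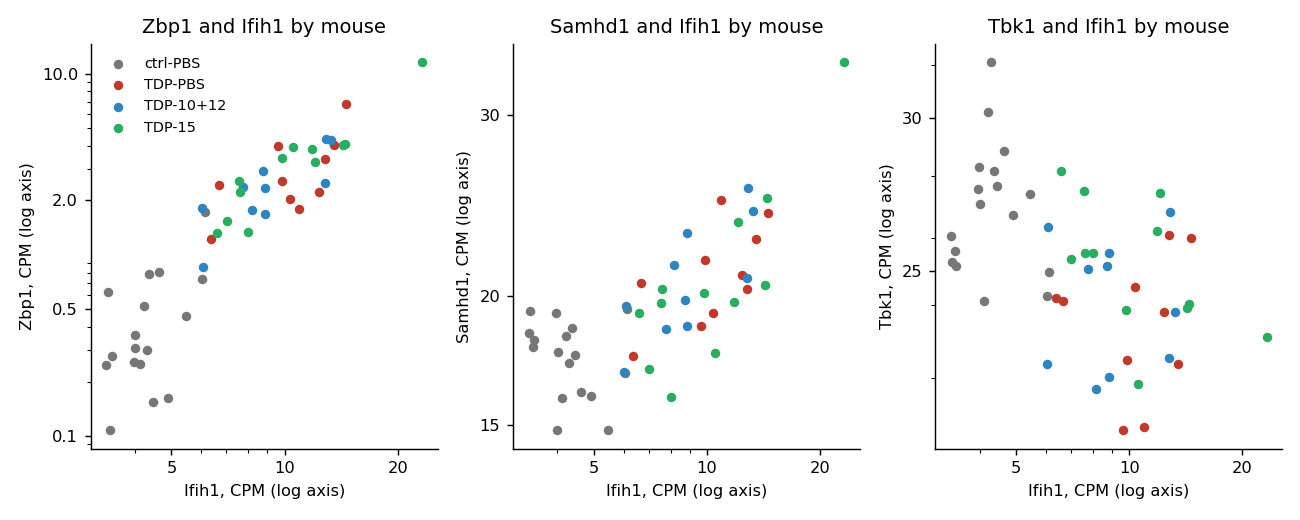
Level of Zbp1, Samhd1 and Tbk1 (y axes, CPM, log axes) against that of Ifih1 (x axes, CPM, log axes) in each of the 49 mice, coloured by group. Among rNLS8 mice Zbp1 (r = 0.835) and Samhd1 (r = 0.761) go up with Ifih1 once group means are removed, while Tbk1 has r = -0.19.

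The non-member genes whose deviations from the group means over all 49 mice were most like those of the called genes are given as a description, since the points share tissue and library preparation. For Ifih1 they were Ifit1 (r = 0.842) and Irgm1 (r = 0.837), and for Zbp1 they were Ifit3 (r = 0.854) and Gbp7 (r = 0.841), all interferon-inducible genes. For Samhd1 they were Parp10 (r = 0.772) and Tapbp (r = 0.733), the latter encoding tapasin of the MHC class I loading complex. For Sting1 they were Fyb (r = 0.709), an adaptor of haematopoietic cells, and Csf3r (r = 0.669), the G-CSF receptor. For Cgas they were Cwh43 (r = 0.613) and Mphosph8 (r = 0.566), and for Tbk1 they were Dip2c (r = 0.624) and Prkci (r = 0.612), an atypical protein kinase C.

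The counts in the gene lists that follow are read beside the shares of all genes that rose and fell, which were 21.9% and 21.6% in TDP-PBS, 20.8% and 20.0% in TDP-10+12, and 23.6% and 23.2% in TDP-15. The other RNA sensors moved largely upward. Of 16 tested, 10 rose and 1 fell in TDP-PBS (median log2 fold change 1.11), 9 rose and 2 fell in TDP-10+12 (median 0.98), and 9 rose and 1 fell in TDP-15 (median 1.16). Against ctrl-PBS, TDP-PBS gave a log2 fold change of 1.79 ± 0.15 (SE) for Ddx58, which encodes RIG-I, 1.399 ± 0.20 for Dhx58, which encodes LGP2, 1.95 ± 0.17 for Eif2ak2, which encodes the double-stranded RNA kinase PKR, and 1.06 ± 0.12 for Trim25, a ubiquitin ligase of RIG-I. The highest value of the list was that of Oasl2 (3.32) and the lowest that of the helicase Dhx15 (-0.12). The median over these genes was well above the 0.00 of all genes tested. The lists were chosen with earlier results of these data known, so a list median describes the genes written into it and not a branch of the pathway.

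The other DNA sensors were split between genes that passed the test and genes that did not. Of 13 tested, 5 rose and 1 fell in TDP-PBS (median 0.03), 5 rose and 1 fell in TDP-10+12 (median 0.02), and 5 rose and 3 fell in TDP-15 (median 0.10). Ifi204, an interferon-inducible DNA-binding protein, was the exception in size, with a log2 fold change of 3.72 ± 0.40 in TDP-PBS, while that of the inflammasome sensor Aim2 was 0.43 ± 0.14. Ddx41 (0.01 ± 0.05) and the DNA-dependent protein kinase Prkdc (-0.03 ± 0.08) did not pass the test, and Xrcc5, a Ku subunit, had the lowest value (-0.37 ± 0.10). Xrcc6, the other Ku subunit, rose by 0.27 ± 0.08 in TDP-PBS.

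Of the 24 genes of STING trafficking and cGAMP turnover, 9 rose and 5 fell in TDP-PBS (against 21.9% and 21.6% of all genes) and in TDP-10+12 (medians 0.03 and -0.02), and 9 rose and 6 fell in TDP-15 (median 0.02). The TDP-PBS mice gave a log2 fold change of 0.06 ± 0.04 for Surf4, a cargo receptor that returns STING to the endoplasmic reticulum, and -0.29 ± 0.12 for Enpp1, the cGAMP hydrolase (adjusted p = 0.0546 by edgeR), which was the lowest of the list. Stim1, which retains STING, fell by 0.15 ± 0.04, and the coat cargo receptor Tmed2 fell by 0.17 ± 0.04. The highest value was that of Usp18 (3.40 ± 0.28), an interferon-induced deubiquitinase and deISGylase.

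Of the 15 tested kinase adaptors and ubiquitin ligases, 6 rose and 4 fell in TDP-PBS (median 0.07, against 21.9% and 21.6% of all genes), 5 rose and 4 fell in TDP-10+12 (median 0.05), and 6 rose and 5 fell in TDP-15 (median 0.08). The scaffolds of TBK1 did not move together. In TDP-PBS, Tbkbp1 rose by 0.34 ± 0.06 and the autophagy receptor Optn by 0.37 ± 0.07, while Tank (-0.12 ± 0.06) and Azi2 (0.07 ± 0.04) did not pass the test. Mlkl, the executioner of necroptosis, had the highest value (0.74 ± 0.31, adjusted p = 0.0466 by edgeR) and the death domain adaptor Tradd the lowest (-0.32 ± 0.12). For Mlkl the log2 fold change was 0.71 ± 0.29 in TDP-15 (adjusted p = 0.0425, edgeR). In TDP-10+12 Mlkl did not pass the test (0.13 ± 0.33, adjusted p = 0.784, edgeR). Ripk3, the partner of ZBP1, did not pass the filter on low counts.

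Of the 12 other transcription factors, 11 rose in each comparison, and 1 fell in each immunized group and none in TDP-PBS. The median log2 fold change was 0.64 in TDP-PBS, 0.53 in TDP-10+12 and 0.77 in TDP-15. In TDP-PBS the highest value was that of Irf7 (3.01 ± 0.26), the interferon-inducible relative of IRF3, and the values of Irf9 and Irf1 were 1.86 ± 0.15 and 0.36 ± 0.13. The level of Irf7 ran from 1.76 to 7.66 CPM in ctrl-PBS and from 15.95 to 71.8 CPM in TDP-PBS. These ranges did not overlap, which held in the upward direction for 2.31% of all genes. Irf2, a repressor, had the lowest value (-0.08 ± 0.07) and did not pass the test in TDP-PBS.

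Of 17 other genes of nucleic acid removal, 6 rose and 4 fell in TDP-PBS (against 21.9% and 21.6% of all genes) and in TDP-10+12 (median 0.12 in both), and 9 rose and 3 fell in TDP-15 (median 0.18). Among the subunits of RNase H2, Rnaseh2c fell by 0.55 ± 0.11 in TDP-PBS, while Rnaseh2a (-0.13 ± 0.06) and Rnaseh2b (0.12 ± 0.08) did not pass the test, nor did the RNA editor Adar (-0.00 ± 0.03). The lysosomal nuclease Pld4 had the highest value (0.89 ± 0.14) and Lsm11, a histone pre-mRNA processing factor, the lowest (-0.68 ± 0.09).

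The interferon ligand genes were at or near 0. Ifnb1 and Ifna1 had 0 counts in all 49 mice, while Ifna2 reached 1 count and Ifna4 reached 3 counts in any mouse, so their change was not detectable at this depth. Of the 6 tested interferon receptors and their kinases, 3 rose in TDP-PBS (median 0.17), with Ifngr2 highest (0.83 ± 0.05) and Jak1 lowest (-0.07 ± 0.04), while 3 rose and 1 fell in TDP-10+12 (median 0.11) and 3 rose in TDP-15 (median 0.20). Of the 11 interferon targets, all 11 rose in each comparison, with medians of 3.09 in TDP-PBS, 2.59 in TDP-10+12 and 3.32 in TDP-15. The TDP-PBS mice gave log2 fold changes of 3.16 ± 0.26 for Ifit1, 2.75 ± 0.20 for Ifit3, 3.41 ± 0.35 for Isg15 and 5.66 ± 0.42 for the chemokine Cxcl10, the highest of the list, and Ifit2 had the lowest value (1.499 ± 0.17). Isg15 ran from 0.207 to 1.30 CPM in ctrl-PBS and from 1.93 to 21.2 CPM in TDP-PBS.

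**Figure D5:**
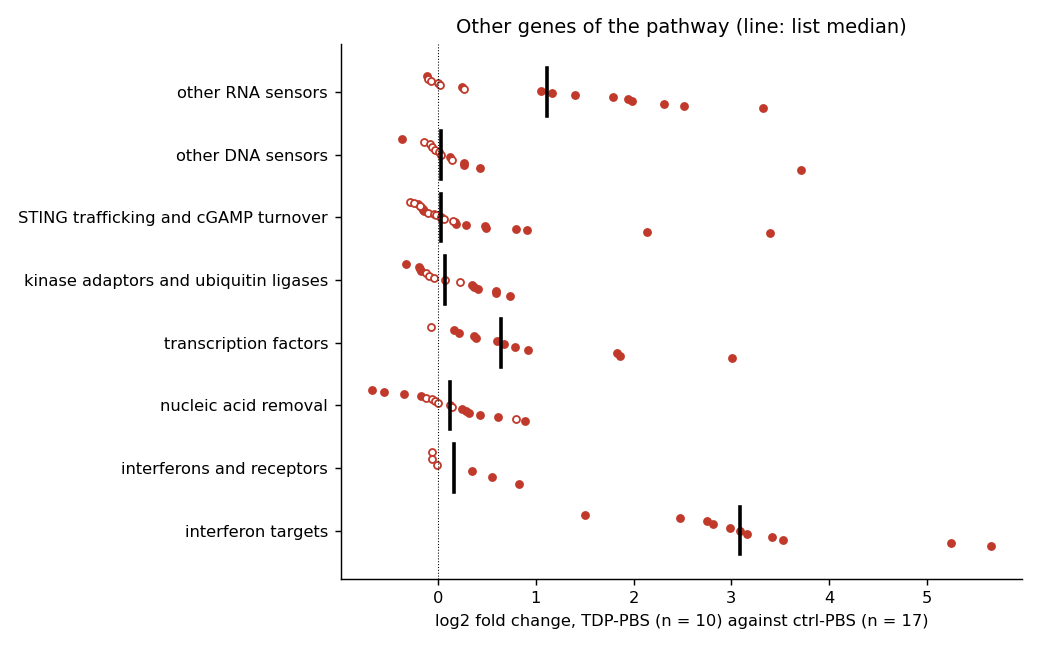
Log2 fold change in TDP-PBS (10 mice) against ctrl-PBS (17 mice) of the tested genes of 8 lists around the 10 sensing genes (points), filled where the adjusted p was under 0.05, with a black line at the list median. The list medians were 3.09 for the interferon targets, 1.11 for the other RNA sensors and 0.64 for the transcription factors. They were 0.03 for the other DNA sensors and 0.03 for STING trafficking and cGAMP turnover. The lists were chosen with earlier results of these data known. Their medians depend on the genes written into them and do not compare the RNA branch with the DNA branch.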

How the data were processed

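RNA from about 30 mg of neocortex per mouse was sequenced by the authors with 100 bp paired-end reads. The deposited file holds raw counts per gene symbol for 49 mice, not normalized. The submitters' processing notes name HISAT, HISAT2, Bowtie, Bowtie2, RSEM and the build mm10, without roles or versions, and the annotation and strand setting are not given in the sources used here. The 10 genes, all gene lists and the promoter motifs were chosen with earlier results of these data known. Each mouse is a separate animal.

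Genes were kept by edgeR's filterByExpr (minimum count 10, minimum total 15), leaving 18220 of 45252. Counts were scaled by TMM (factors 0.929 to 1.06) and tested in a quasi-likelihood fit of all 4 groups (edgeR 4.0.16, R 4.3.3), with Benjamini-Hochberg adjustment over all genes tested, a threshold of 0.05 and two-sided tests. The steps were tested on simulated data for TDP-PBS against ctrl-PBS (18062 genes), in which 94.9% of 2-fold and 78.8% of 1.5-fold changes were recovered. In that run 11 genes were called in error. It changed 99 genes at each size, far fewer than were called in the real comparison. Changes under 1.5-fold, such as those of Cgas, Sting1, Samhd1 and Tbk1 in TDP-PBS, were not simulated. CPM are shown with TMM scaling left in place, as computed from the deposited counts. Correlations used log2 CPM with a prior count of 2, less the group means. Exon lengths came from GENCODE for GRCm38 and positions and promoters from RefSeq GRCm38.p6, where 45248 of 45252 symbols matched. Alternatives used DESeq2 1.42.0 and limma 3.58.1 among others. No pair of mice within a group agreed within sampling noise.

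Named genes were the 10 genes, Tardbp and the 2 most alike non-member genes per gene called in TDP-PBS. Each pathway list gave its first 4 genes in a set order and those with its highest and lowest log2 fold change in TDP-PBS. Ripk3, Xrcc6, the marker genes P2ry12, Cd4 and Plac8 and the T cell markers near 0 were named beside them, chosen after their values were seen. The value of 1 gene that this rule names is not reported here.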

Additional observations from a re-analysis of the deposited data

Results flagged for a closer look

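Among the 18 sets of 10 mice examined (9 genes in TDP-PBS and in TDP-10+12), a single mouse stood apart from the rest of its group. The limits used covered groups of up to 10 mice, so TDP-15 (12 mice, with mouse 126 described above) and ctrl-PBS (17 mice) were not examined. TDP-PBS mouse 217 had 6.82 CPM of Zbp1 and the next highest mouse of the group had 4.02 CPM, a gap of 0.50 of the whole range of the group, above Dixon's 95% limit for 10 samples. Chance flags about 1 in 20 such sets.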

How the results depend on the processing

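Over 8 alternatives (DESeq2 size factors, upper-quartile scaling, no filter, a minimum of 10 counts per mouse, a sex term, only the 2 groups compared, DESeq2, and limma-voom with sample quality weights), 204 of 210 log2 fold changes against ctrl-PBS kept their direction and their side of the threshold. The filter of 10 counts in every mouse removed Zbp1 and Ikbke, so it gave no value for them. Cgas in TDP-15 passed under 4 alternatives (adjusted p = 0.0392 to 0.103 over all 8, edgeR unless another tool is named above), and Tbk1 in TDP-15 passed under limma-voom (adjusted p = 0.0372 to 0.122 over all 8). Ikbke in TDP-PBS turned to 1.5e-05 with only the 2 groups compared and ran from -0.11 to 0.0813 when single mice were left out. The number of the 9 genes called in TDP-PBS was 5 to 6 over the alternatives and 6 to 7 when single mice were left out, in TDP-10+12 4 to 5 and 5, in TDP-15 5 to 7 and 5 to 7, and 0 in every fit between rNLS8 groups. Of the 12 most alike genes, 5 were also named by Spearman's correlation. The longest transcript left 7 of 9 genes at the same place in the order of levels per length. No paired analysis was possible because each animal number belongs to 1 mouse. Depth limits Ikbke, Cgas and the control level of Zbp1.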
